A study of Homo sapiens with 15 samples.

Results

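The sterol and fatty acid synthesis genes are 30 genes: the enzymes that build cholesterol and long-chain fatty acids, 2 transcription factors and 2 other proteins that set or serve sterol balance. They were taken from the deposited count table by gene symbol, and all 30 symbols were found among its 15510 gene rows. All 30 also passed the filter on low counts, as did 13599 genes in all. By role they are 7 genes of the mevalonate route, 11 of the steps between squalene and cholesterol, 4 regulators and carriers, 6 genes of fatty acid supply and synthesis, and 2 desaturases of polyunsaturated fatty acids.

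Both routes start from acetyl-CoA in the cytosol, and most of their genes are under a shared control by the sterol regulatory element binding proteins. These transcription factors are held in the endoplasmic reticulum membrane while sterol is plentiful and are cut free when it runs low, so that synthesis genes are transcribed together. Growth factor signalling through RAS and through PI3K and AKT is known to act on this control, and cells that take up serum lipoproteins depend on it less. The retinal pigment epithelium, from which the cells come, handles large amounts of lipid from the photoreceptor tips it ingests.

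The study took ARPE19, a spontaneously arisen cell line of human retinal pigment epithelium, through defined steps towards transformation, with poly(A) RNA sequenced in 15 libraries of 5 lines, 3 libraries a line. All lines were grown attached in DMEM/F12 with 10% fetal bovine serum, and the libraries of a line came from separately thawed vials. The constructs of each line are given here as labelled. RasV12 cells carry hTERT, a dominant negative p53 (p53DD), cyclin D1, CDK4 R24C and H-RasV12, an activated RAS, and are labelled transformed. MekDD cells carry the same first 4 constructs and MEK-DD, an activated MAPK kinase, and are labelled weakly transformed. AKTmyr cells carry those 4 and a membrane-bound (myristoylated) Akt and are labelled transformed. T53D4 cells carry only hTERT, p53DD, cyclin D1 and CDK4 R24C and are labelled not transformed. ARPE19 cells were not transfected. Each construct set was therefore seen in 1 line, so a construct and the history of its line cannot be told apart. The p-values measure the spread between cultures of the same line, estimated over all 5 lines together.

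Reads counted on genes ranged from 20.63 M to 46.55 M a library. The H-RasV12 sequence was counted at 310.4 CPM in RasV12 cells and at 18.6 to 23.2 CPM in the other lines (CPM, counts scaled to a common library size with trimmed-mean factors, mean of 3 libraries). MEK-DD was at 753.2 CPM in MekDD cells and at most 0.0673 CPM elsewhere, and the Akt construct at 839.6 CPM in AKTmyr cells against 116.9 CPM in T53D4 cells. Cyclin D1 and CDK4 sequences were at 145.8 and 92.2 CPM in the libraries labelled T53D4, against 193.0 and 70.7 CPM in untransfected ARPE19, so these counts go against that part of the label. They were at 2349.7 and 2380.5 CPM in RasV12, 269.5 and 142.2 CPM in MekDD and 857.7 and 1005.5 CPM in AKTmyr cells. Sequences of hTERT and p53DD were at 878.9 and 70.7 CPM in T53D4 libraries, against 0.176 and 0.00976 CPM in ARPE19, which goes with that part of the label. Those of hTERT and p53DD were at 1243.7 and 110.8 CPM in RasV12, 454.2 and 32.3 CPM in MekDD and 632.6 and 58.4 CPM in AKTmyr cells. Because of the cyclin D1 and CDK4 counts, the name T53D4 below stands for a label. In MekDD libraries the cyclin D1 counts, at 327, 271 and 211 CPM, overlapped those of ARPE19, at 156, 238 and 185 CPM. The CDK4 counts of MekDD were above those of ARPE19 in every library but far below those of RasV12 and AKTmyr. That part of the MekDD label is therefore uncertain too. Of 11 retinal pigment epithelium markers, KRT8, KRT18, MITF and OTX2 were clearly expressed in all lines, while BEST1, RLBP1, TYR, TYRP1, PMEL and RDH5 averaged at most 7.10 CPM in any line and SERPINF1 between 2.16 and 26.3 CPM. The summed level of the 11 was 858 to 1040 CPM in RasV12, 1120 to 1400 CPM in MekDD, 1330 to 2040 CPM in AKTmyr, 1590 to 1950 CPM in T53D4 and 2460 to 2530 CPM in ARPE19 libraries, and the part of this order in the results was not tested. Most of the sum was KRT8 and KRT18, at means of 610 and 206 CPM in RasV12 and 1681 and 650 CPM in ARPE19 cells. OTX2 did not follow the order, at means of 69.3, 73.7, 94.2, 64.4 and 64.9 CPM in RasV12, MekDD, AKTmyr, T53D4 and ARPE19 cells. SERPINF1 was highest in MekDD cells and TYRP1 in AKTmyr cells. The 7 markers of other cell types in the table summed to at most 1.67 CPM in any library. Bulk RNA cannot tell fewer cells of a kind from less RNA in each cell.

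As a sum, the 30 genes were lowest in MekDD cells and most variable in AKTmyr cells. Their summed level was 4473, 3555 and 3624 CPM in RasV12 libraries, 3665, 3514 and 3201 CPM in MekDD libraries, and 6637, 3653 and 4504 CPM in AKTmyr libraries. It was 5436, 4056 and 4386 CPM in the libraries labelled T53D4 and 4330, 3943 and 4133 CPM in ARPE19. The MekDD sums lay below all 6 sums of T53D4 and ARPE19 but overlapped those of RasV12 and AKTmyr. The other lines overlapped each other. By mean level, 14 of the 30 genes were highest in T53D4 cells and 9 in AKTmyr cells, and 17 were lowest in MekDD cells. None was lowest in T53D4 cells.

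**Figure D1:**
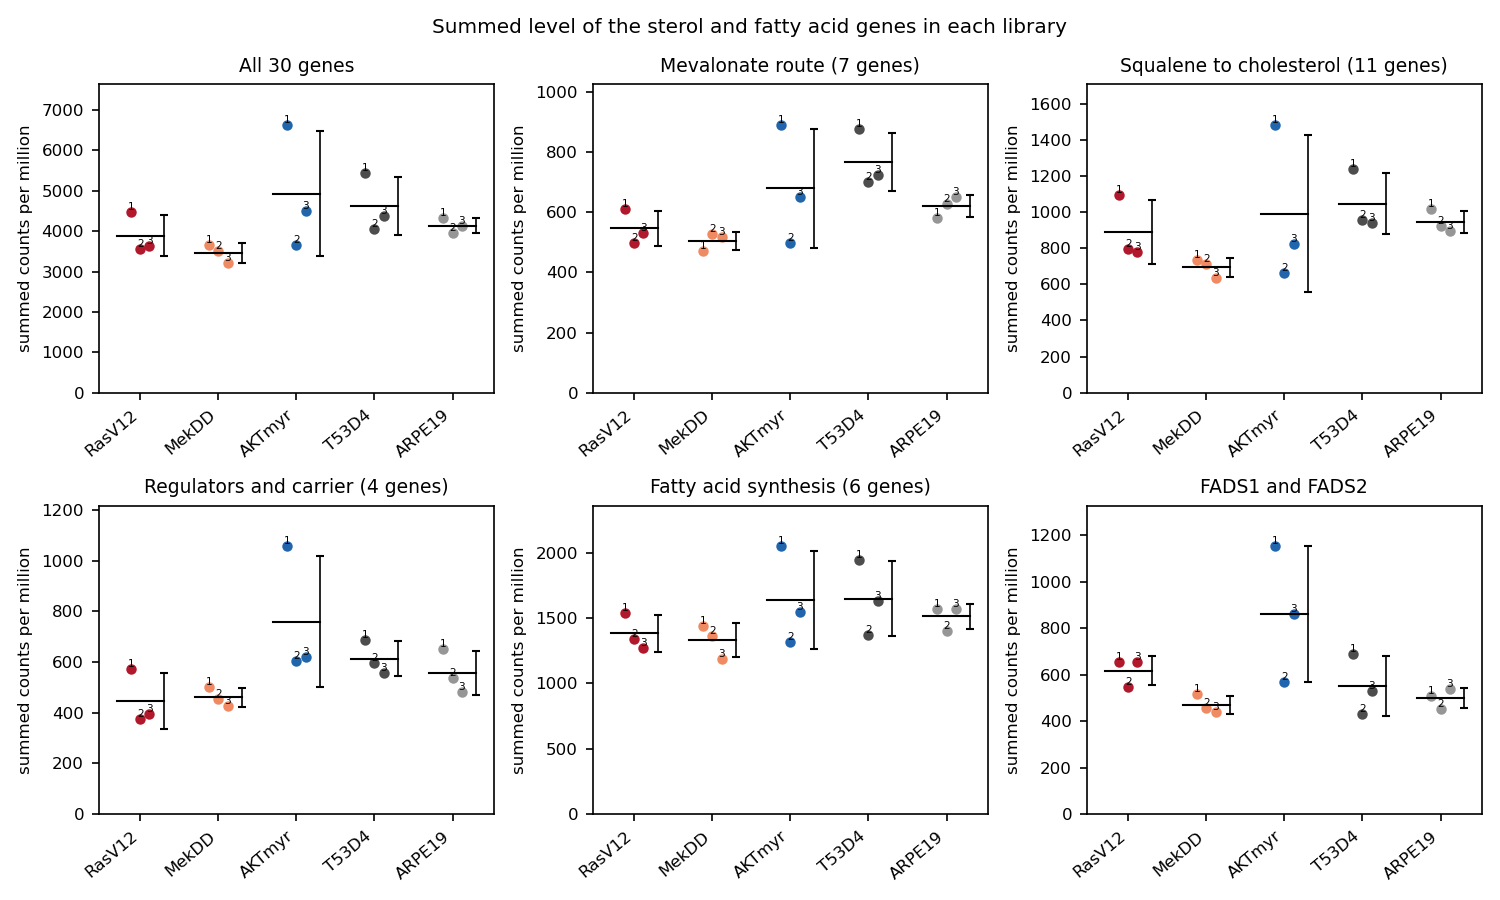
Summed level of the genes of each role (y axis, CPM) in the 3 libraries of each line (x axis). Points are libraries with their replicate number, horizontal bars are means and whiskers are SD over 3 libraries. Replicate 1 of AKTmyr is the highest library in every panel (6637 CPM for all 30 genes), and the MekDD libraries sit low in the squalene-to-cholesterol panel (632 to 736 CPM).

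Per kilobase of exon, so that genes can be set against each other, SCD was the most abundant member in every line. SCD, which puts the first double bond into saturated fatty acids, averaged 100.2, 107.0 and 157.0 RPKM in RasV12, MekDD and AKTmyr cells and 108.3 and 103.3 RPKM in T53D4 and ARPE19 cells (RPKM, CPM per kilobase of merged exons). FDPS, which makes farnesyl diphosphate for sterols and for protein prenylation, ranged over the lines between 49.1 and 74.0 RPKM. ACLY, which releases acetyl-CoA from citrate, lay between 49.0 and 60.6 RPKM. At the low end, CYP51A1, the lanosterol demethylase, averaged 1.43 to 2.44 RPKM and HSD17B7, a sterol ketone reductase, 1.69 to 2.53 RPKM. The count of CYP51A1 is uncertain, since its exons share bases with 2 other genes of the same strand in the deposited annotation. Exons of 8 of the 30 genes overlap another gene (ACAT2, MVK, CYP51A1, TM7SF2, EBP, SREBF1, FADS1 and FADS2), and whether strand was used in counting is not given in the sources used here. FADS1 and FADS2, which put double bonds into polyunsaturated fatty acids, overlap each other on opposite strands. FADS2 also shares exon bases with FEN1 on the same strand. In all, 4 members (CYP51A1, TM7SF2, EBP and FADS2) overlap a gene of the same strand, which the use of strand would not settle. FDPS, CYP51A1, HSD17B7, SCD and FADS2 also have named pseudogenes in the reference annotation, 15 in all, whose share of reads is not known.

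Promoters are shown for 5 genes that the comparisons turn on. HMGCS1 condenses acetyl groups into the precursor of mevalonate, and LSS closes squalene epoxide into lanosterol, the first sterol. INSIG1 holds the sterol-sensing complex in the membrane, STARD4 carries cholesterol between membranes, and SREBF2 encodes the transcription factor SREBP-2. The sequences are RefSeq's for GRCh38.p14, 250 bases ending just before the annotated start, 5′ to 3′ on the gene's strand. They are chr5:43313413-43313662 (HMGCS1, minus strand), chr21:46228775-46229024 (LSS, minus strand), chr7:155297628-155297877 (INSIG1, plus strand), chr5:111512536-111512785 (STARD4, minus strand) and chr22:41832855-41833104 (SREBF2, plus strand). Capitals mark CCAAT, or ATTGG where it lies on the opposite strand, the letters bound by NF-Y, a known partner of these factors, and TCACNCCAC, a core of the sterol regulatory element.
HMGCS1: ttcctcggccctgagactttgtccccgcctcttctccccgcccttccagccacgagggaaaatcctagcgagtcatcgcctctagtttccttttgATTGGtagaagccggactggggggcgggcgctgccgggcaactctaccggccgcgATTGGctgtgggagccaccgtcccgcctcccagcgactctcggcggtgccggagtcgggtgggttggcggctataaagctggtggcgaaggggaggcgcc
LSS: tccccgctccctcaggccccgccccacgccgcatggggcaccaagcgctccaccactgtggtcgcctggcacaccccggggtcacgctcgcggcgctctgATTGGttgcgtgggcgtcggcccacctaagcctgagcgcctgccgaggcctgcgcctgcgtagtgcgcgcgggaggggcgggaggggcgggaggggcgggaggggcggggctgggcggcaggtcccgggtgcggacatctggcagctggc
INSIG1: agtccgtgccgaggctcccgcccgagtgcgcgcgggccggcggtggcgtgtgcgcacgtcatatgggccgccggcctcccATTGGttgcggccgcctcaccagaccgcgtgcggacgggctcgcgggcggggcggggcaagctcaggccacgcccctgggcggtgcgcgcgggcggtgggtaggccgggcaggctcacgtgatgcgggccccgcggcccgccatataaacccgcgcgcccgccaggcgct
STARD4: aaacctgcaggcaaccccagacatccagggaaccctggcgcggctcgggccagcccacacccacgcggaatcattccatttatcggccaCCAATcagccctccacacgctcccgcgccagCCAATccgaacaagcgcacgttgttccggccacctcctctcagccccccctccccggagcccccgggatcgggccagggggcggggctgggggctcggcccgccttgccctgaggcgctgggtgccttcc
SREBF2: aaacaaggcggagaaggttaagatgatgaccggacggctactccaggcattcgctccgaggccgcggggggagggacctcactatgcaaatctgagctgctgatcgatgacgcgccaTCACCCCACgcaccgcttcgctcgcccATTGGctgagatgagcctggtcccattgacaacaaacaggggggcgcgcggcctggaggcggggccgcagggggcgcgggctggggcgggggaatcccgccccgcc
Each of the 5 holds CCAAT at least once. Only the SREBF2 window of these 5 holds TCACNCCAC, 133 bases before the start, and it does not overlap the match of CCAAT there. RefSeq windows of 250 bases before to 50 after the start were found for 26 of the 30 genes. Searched on both strands, CCAAT occurred in 21 of the 26 (80.8%), against 39.7% of 27305 genes with a window. That larger set was not limited to genes expressed here, as the members are. TCACNCCAC occurred in 1 of the 26 (3.85%), against 1.39% of all genes, and CACGTG, the letters of an E-box, in 3 (11.5%), against 8.77%. These are matches of letters, not sites shown to be bound, and no match says nothing about the factor.

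T53D4 against ARPE19 asks what the immortalizing constructs alone went with. No member passed the test. Calls come from the quasi-likelihood test of edgeR, which called a gene where its p, adjusted by Benjamini-Hochberg over all 13599 genes, was under 0.05. It called 0 of 30 members, against 0.154% of all genes (0.0368% higher and 0.118% lower). At an unadjusted p under 0.05 there were 4 members and 1456 genes, and DESeq2 called 0 members. The 4 are FDPS, CYP51A1, EBP and SREBF1, with log2 fold changes of 0.40, 0.76, 0.49 and 0.28 and adjusted p of 0.346, 0.385, 0.33 and 0.388 in the edgeR test. The median log2 fold change was 0.17 over the 30 genes and 0.00 over all genes to 2 decimals, and 24 of the 30 were positive, all 7 mevalonate genes among them.

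RasV12 against T53D4 asks what activated RAS went with. The lines also differed in the mean counts of cyclin D1, CDK4 R24C, hTERT and p53DD given above. The oncogene and these constructs therefore cannot be told apart, and the same holds for MekDD and AKTmyr. HMGCS1, FDPS and LSS of the sterol route, FASN and ACACA of the fatty acid route and both SREBP genes were lower, and the desaturase gene FADS1 was higher. The comparisons of RasV12, MekDD and AKTmyr with T53D4 share the same 3 T53D4 libraries. Of 30 members, 7 fell and 1 rose, and the 8 called were 26.7% of the members, against 24.4% of all genes tested, so the share was close to the background. Lower calls were 13.6% and higher calls 10.8% of all genes. The median log2 fold change was -0.23 over the members, 24 of them negative, and 0.01 over all genes.

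Sterol enzymes showed the largest falls. LSS was at 71.8, 61.9 and 75.5 CPM in RasV12 libraries, against 179, 133 and 159 CPM in those labelled T53D4. All RasV12 values lay below all T53D4 values, at a log2 fold change of -1.17 (SE 0.18, edgeR adjusted p = 2.91e-04). HMGCS1 was at 103, 73.1 and 88.1 CPM in RasV12 libraries, against 206, 175 and 144 CPM in T53D4 libraries, again with no overlap (log2 fold change -0.99, SE 0.29, edgeR adjusted p = 0.0212). FDPS fell less, with a log2 fold change of -0.41 (edgeR adjusted p = 0.0452). Its mean was 206 CPM in RasV12 cells and 275 CPM in T53D4 cells, beside 208 CPM in ARPE19 cells. Of the 18 sterol enzymes 3 fell and 0 rose, and 16 had a negative fold change. MVD, which decarboxylates mevalonate diphosphate, had a log2 fold change of -0.63 with an edgeR adjusted p of 0.0602, and 0.00749 with the replicate number as a block.

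Both SREBP genes fell. SREBF2 was at 299, 203 and 219 CPM in RasV12 libraries, against 423, 390 and 359 CPM in T53D4 libraries, without overlap (log2 fold change -0.70, SE 0.19, edgeR adjusted p = 0.0174). SREBF1, whose product SREBP-1 drives mainly the fatty acid genes, was at 54.1, 55.2 and 52.6 CPM in RasV12 libraries, against 74.4, 67.6 and 70.9 CPM in T53D4 libraries. Its groups did not overlap either, at a log2 fold change of -0.39 (SE 0.11, edgeR adjusted p = 0.0171). In ARPE19 libraries SREBF1 was at 59.8, 57.0 and 58.5 CPM, below all T53D4 values and above all RasV12 values. The mean of SREBF2 in ARPE19 cells was 365 CPM. INSIG1 was at 134, 72.3 and 74.0 CPM in RasV12 libraries and 123, 92.2 and 82.4 CPM in T53D4 libraries, and STARD4 at 87.2, 42.9 and 47.8 CPM against 67.5, 47.3 and 42.6 CPM. Neither passed the test, and their groups overlapped. The sign of INSIG1 turned without RasV12 replicate 2 or 3 or T53D4 replicate 1, and that of STARD4 without RasV12 replicate 1. SREBF2 lies on chromosome 22, where the median log2 fold change over 238 genes in this comparison was -0.15, and the part of the chromosome in its value was not tested.

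Of the fatty acid genes, FASN and ACACA fell. FASN, fatty acid synthase, was at 279, 287 and 309 CPM in RasV12 libraries, against 517, 381 and 506 CPM in T53D4 libraries. The groups stood apart (log2 fold change -0.68, SE 0.18, edgeR adjusted p = 0.0134). ACACA, acetyl-CoA carboxylase, fell by 0.64 on the log2 scale (SE 0.13, edgeR adjusted p = 0.00275). FADS1 was the single member called higher: 323, 304 and 391 CPM in RasV12 libraries, against 245, 203 and 225 CPM in T53D4 libraries. Its reads cannot be told from those of FADS2 where their exons overlap if strand was not used, and all RasV12 values were above all T53D4 values (log2 fold change 0.60, SE 0.18, edgeR adjusted p = 0.0257). ACSS2, which turns acetate into acetyl-CoA, was at 47.5, 53.9 and 41.9 CPM in RasV12 libraries, against 40.8, 33.1 and 29.2 CPM in T53D4 libraries. Its log2 fold change was 0.48, with an edgeR adjusted p of 0.0621, and 0.00839 with the replicate block. ACSS2 lies on chromosome 20, where the median log2 fold change over 287 genes in this comparison was 0.255. The part of the chromosome in its value was not tested. SCD, ACLY and ELOVL6 did not pass the test.

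With the replicate block 8 members fell and 2 rose, against 35.8% of all genes called. LSS and ACACA kept their calls in all 11 alternatives, and the other 6 lost theirs in some. HMGCS1 was lost without RasV12 replicate 2 or 3 or T53D4 replicate 1 or 2, and FDPS without RasV12 replicate 2 or 3, without T53D4 replicate 1 or 3, with no filter on low counts and with the pair of lines alone. SREBF1 was lost without RasV12 replicate 1 or 3 or T53D4 replicate 1, SREBF2 without RasV12 replicate 2 or 3 or T53D4 replicate 1, and FASN without RasV12 replicate 1 or T53D4 replicate 1. That left 4 members called lower without RasV12 replicate 2, 3 without RasV12 replicate 3 and 2 without T53D4 replicate 1. FADS1 was lost without RasV12 replicate 3 or T53D4 replicate 2 or 3. The number called higher was 0 without RasV12 replicate 3, T53D4 replicate 2 or T53D4 replicate 3, and 2 without T53D4 replicate 1.

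MekDD against T53D4 asks what activation of the MAPK branch alone went with. Of 30 members, 6 fell and 0 rose, and 28 had a negative fold change. The 6 are 20% of the members, against 5.1% of all genes tested, of which 2.27% were called higher and 2.83% lower. The median log2 fold change was -0.49 over the members and 0.00 over all genes, and the 3 MekDD values did not overlap the 3 T53D4 values for 18 of the 30 (60%), against 24% of all genes tested. All 11 genes from squalene to cholesterol were negative, with a median of -0.50.

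The called genes were HMGCS1, MVD and FDPS of the mevalonate route, LSS, and FASN and ACACA of fatty acid synthesis. HMGCS1 was at 76.9, 90.4 and 83.7 CPM in MekDD libraries, against 206, 175 and 144 CPM in those labelled T53D4, a level that left the groups well apart (log2 fold change -1.06, SE 0.29, edgeR adjusted p = 0.0475). MVD was at 36.1, 34.6 and 32.2 CPM in MekDD libraries, against 89.3, 48.8 and 55.2 CPM in T53D4 libraries (log2 fold change -0.91, SE 0.23, edgeR adjusted p = 0.0341). Its T53D4 values spread widely, with replicate 1 the highest, and still lay above every MekDD value. FDPS fell by 0.52 on the log2 scale (edgeR adjusted p = 0.0472), to a mean of 192 CPM, beside 208 CPM in ARPE19 cells. LSS was at 80.3, 97.8 and 109 CPM in MekDD libraries, against 179, 133 and 159 CPM in T53D4 libraries (log2 fold change -0.71, SE 0.17, edgeR adjusted p = 0.0295). The groups were apart here too, and between squalene and cholesterol LSS was the single gene called. FASN was at 222, 310 and 296 CPM in MekDD libraries, against 517, 381 and 506 CPM in T53D4 libraries, without overlap (log2 fold change -0.76, SE 0.18, edgeR adjusted p = 0.0258). ACACA fell by 0.48 on the log2 scale (edgeR adjusted p = 0.0469).

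Some members were called only with the replicate block. DHCR7, the last reductase on the way to cholesterol, was at 89.1, 77.5 and 72.7 CPM in MekDD libraries, against 185, 121 and 136 CPM in T53D4 libraries. Its log2 fold change was -0.89, with an edgeR adjusted p of 0.065, and 0.00456 with the replicate block. EBP, a sterol isomerase, SQLE, which makes squalene epoxide, SREBF2 and ACSS2 had log2 fold changes of -0.60, -0.72, -0.51 and -0.44. Their adjusted p in the edgeR test was 0.0139, 0.02, 0.0149 and 0.0461 with the replicate block and 0.0587, 0.138, 0.179 and 0.201 without it. PMVK, the second mevalonate kinase, and FADS1 were the 2 members on the positive side.

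With the block 11 members fell and 0 rose, against 11.7% of all genes called. No call held in every alternative, and the pair of lines fitted alone called 5 members, 1 of them among the 6. The number called was 0 without MekDD replicate 1 or without T53D4 replicate 1, 1 without MekDD replicate 2 or T53D4 replicate 3, 2 without MekDD replicate 3 and 3 without T53D4 replicate 2. Between 26 and 29 of the 30 fold changes stayed negative in each of these fits.

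**Figure D2:**
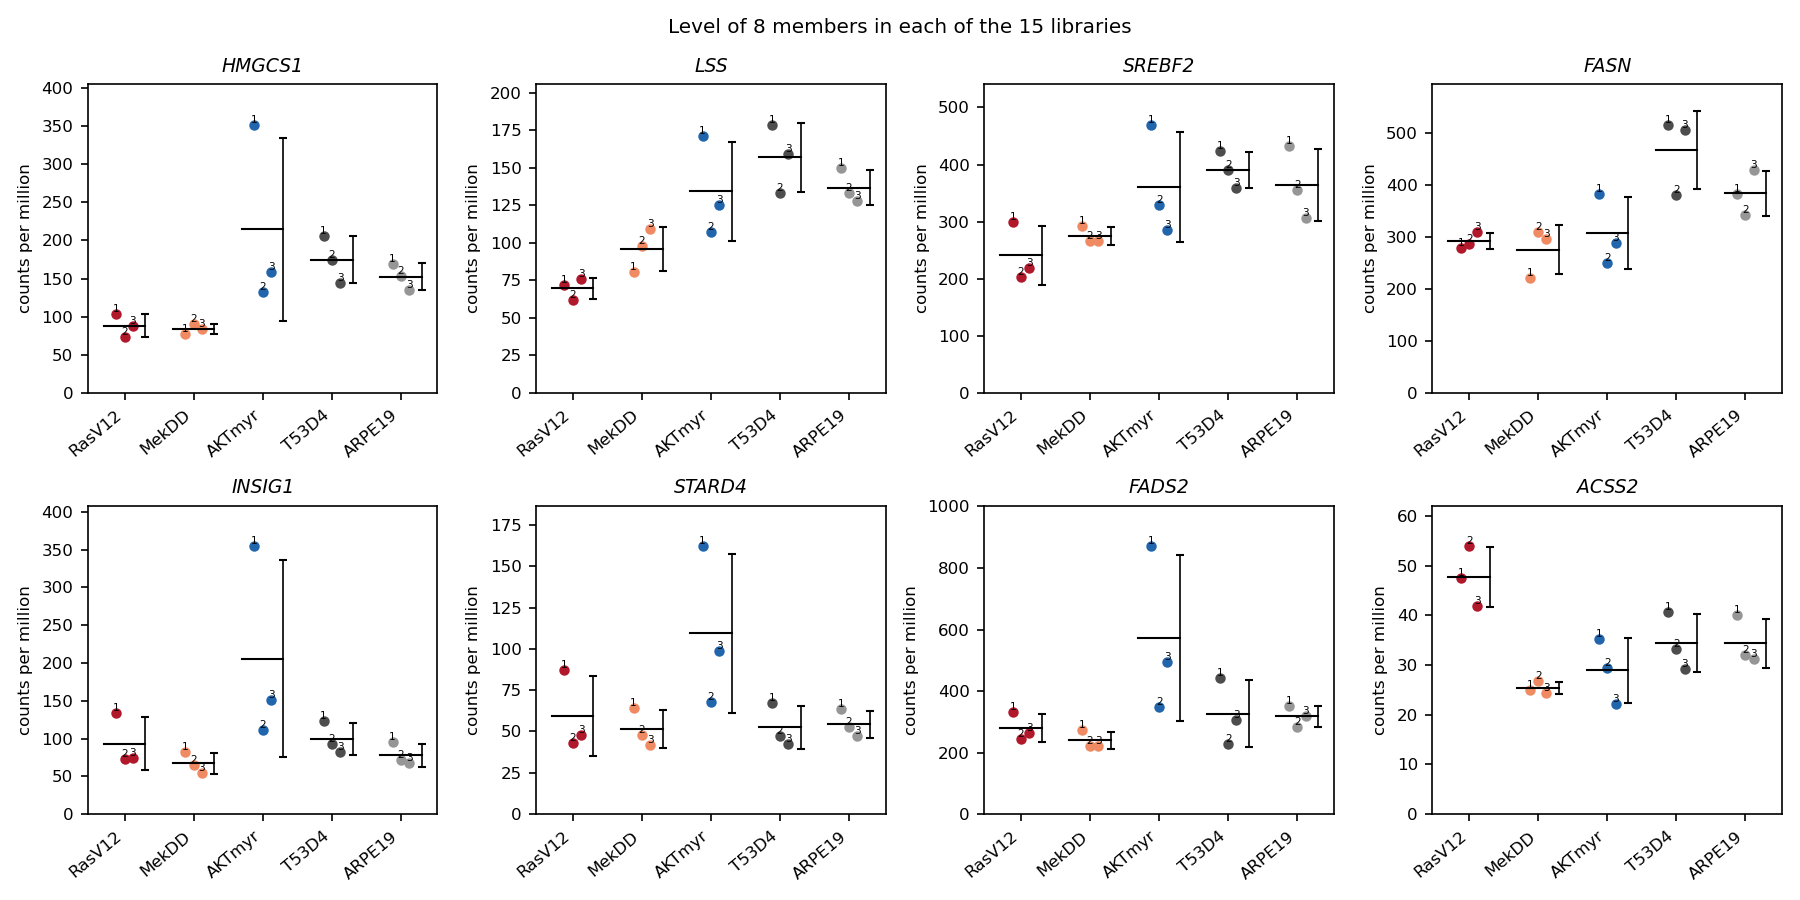
Level of 8 members (y axes, CPM) in the 3 libraries of each line (x axes). Points are libraries with their replicate number, horizontal bars means and whiskers SD over 3 libraries. HMGCS1 is low in RasV12 and MekDD cells (73.1 to 103 CPM), and replicate 1 of AKTmyr stands high for HMGCS1, INSIG1, STARD4 and FADS2 (352, 355, 162 and 871 CPM).

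AKTmyr against T53D4 asks what an activated AKT went with. HMGCS1 and LSS of the sterol route did not pass the test, while FDPS of the mevalonate route was called lower. The members with the largest positive fold changes were the carrier STARD4, the sterol sensor's anchor INSIG1 and FADS2. Of 30 members, 1 rose and 3 fell. The 4 called are 13.3% of the members, below the 20.1% of all genes tested, of which 9.91% were called higher and 10.2% lower. The median log2 fold change was -0.18 over the members and -0.01 over all genes.

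STARD4 was at 162, 67.7 and 98.8 CPM in AKTmyr libraries, against 67.5, 47.3 and 42.6 CPM in the libraries labelled T53D4. Every AKTmyr value was above every T53D4 value, narrowly for replicate 2 (log2 fold change 1.06, SE 0.32, edgeR adjusted p = 0.0327). INSIG1 was at 355, 112 and 151 CPM in AKTmyr libraries, against 123, 92.2 and 82.4 CPM in T53D4 libraries. These groups overlapped, and the log2 fold change of 1.05 had an edgeR adjusted p of 0.0569, and 0.004 with the replicate block. FADS2 was at 871, 349 and 496 CPM in AKTmyr libraries, against 443, 229 and 307 CPM in T53D4 libraries (log2 fold change 0.81, edgeR adjusted p = 0.0636, and 0.00443 with the block). SCD followed the same pattern at 1149, 596 and 725 CPM in AKTmyr libraries, against 804, 415 and 485 CPM in T53D4 libraries. Both genes overlapped between the lines, although within each replicate number the AKTmyr value was the higher, and the edgeR adjusted p of SCD was 0.226, and 0.00575 with the block, at a log2 fold change of 0.54.

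The members called lower were FDPS, NSDHL and FASN. FDPS was at 208, 153 and 186 CPM in AKTmyr libraries, against 313, 245 and 267 CPM in T53D4 libraries, without overlap (log2 fold change -0.59, SE 0.14, edgeR adjusted p = 0.0106). The mean of FDPS in ARPE19 cells was 208 CPM. NSDHL, which takes a carboxyl group off the sterol ring, was at 34.3, 26.3 and 30.7 CPM in AKTmyr libraries, against 42.5, 39.5 and 40.3 CPM in T53D4 libraries, again without overlap (log2 fold change -0.42, SE 0.13, edgeR adjusted p = 0.0336). FASN was at 384, 249 and 289 CPM in AKTmyr libraries, against 517, 381 and 506 CPM in T53D4 libraries. Its groups touched, since AKTmyr replicate 1 exceeded T53D4 replicate 2 (log2 fold change -0.61, SE 0.18, edgeR adjusted p = 0.0304). HMGCS1, at 352, 133 and 159 CPM in AKTmyr libraries and 206, 175 and 144 CPM in T53D4 libraries, did not pass the test, and its log2 fold change of 0.30 was -0.25 without AKTmyr replicate 1. CYP51A1, with its uncertain count, had a log2 fold change of -0.77 (edgeR adjusted p = 0.075, and 0.0136 with the block).

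With the block 4 members rose and 4 fell, against 34.8% of all genes called. Without AKTmyr replicate 1 the log2 fold change of STARD4 was 0.68 (edgeR adjusted p = 0.166) and that of INSIG1 0.42 (edgeR adjusted p = 0.368), both not called, while SREBF1 alone was called higher and 5 members were called lower. STARD4 was also lost without T53D4 replicate 2 or 3, which left 0 called higher, while 3 were called higher without AKTmyr replicate 2 and 2 without AKTmyr replicate 3 or T53D4 replicate 1. NSDHL was lost without AKTmyr replicate 2 or 3 or any 1 T53D4 replicate, and FASN without AKTmyr replicate 2 or 3 or T53D4 replicate 1 or 3. The number called lower was 1 without AKTmyr replicate 2 or 3 or T53D4 replicate 1 or 3, and with the pair of lines fitted alone no member was called (0 of 30).

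AKTmyr replicate 1 stood apart from the other libraries of its line in these genes. It held the highest value of its line for 23 of 30 members (76.7%), against 37.5% of all tested genes. Its log2 level over the mean of the other libraries of the line had a median of 0.59 over the members and 0.01 over all tested genes. Of the 30 members, 6 were over 2-fold higher, beside 7.73% of all tested genes that were over 2-fold apart either way. The median absolute log2 difference was 0.59 over the members and 0.286 over all tested genes. MSMO1, which oxidizes methyl groups of the sterol ring, was at 419 CPM in that library, against 105 and 155 CPM in replicates 2 and 3. Other values moved with it. The Akt construct was lowest there, at 543 CPM against 774 and 1201 CPM. The summed level of 10 genes of dividing cells (MKI67, TOP2A, CCNB1, CDK1, BIRC5, MCM2, MCM3, PCNA, FEN1 and RRM2, a list added after levels had been seen) was also lowest there, at 1358 CPM against 1565 and 2464 CPM. Replicate 1 also held the highest value for 24 of 30 members in T53D4 (80%), against 39.8% of all genes, and for 20 in RasV12 (66.7%), against 34.9%. The summed level of dividing-cell genes in replicate 1 was the highest of its line in RasV12, at 2740 CPM against 2042 and 2407 CPM, and lay between the others in T53D4, at 1997 CPM against 1969 and 2487 CPM. The part of these values and of the Akt construct in the sterol values was not tested. In ARPE19 the number was 17 and in MekDD 12.

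**Figure D3:**
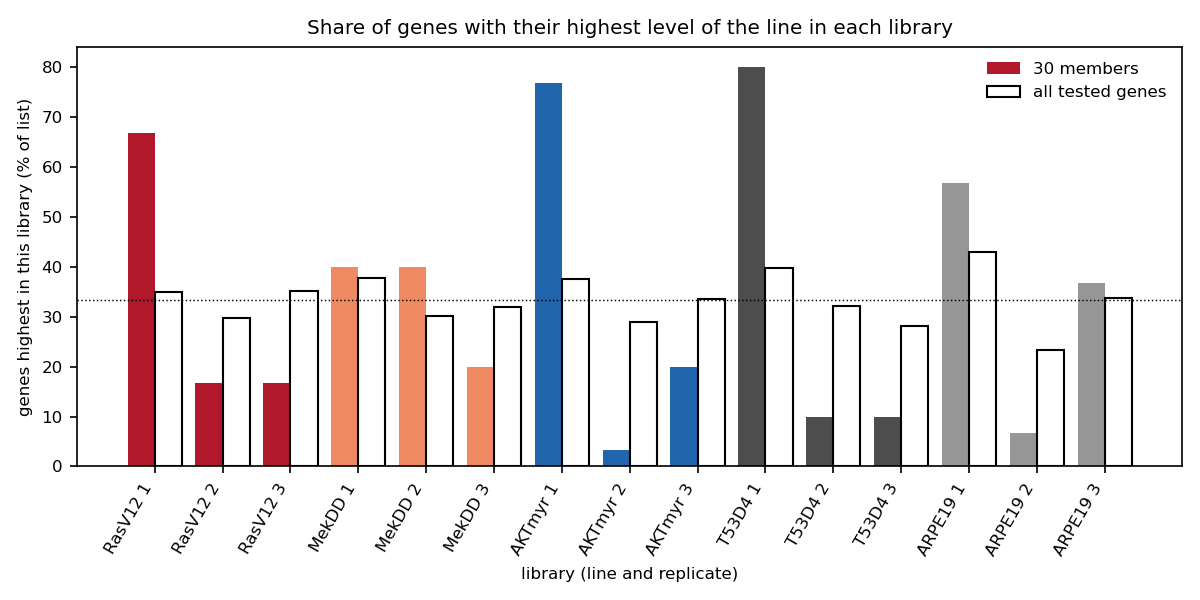
Share of genes (y axis, percent) whose highest value of the line fell in each library (x axis), for the 30 members (filled bars) and all 13599 tested genes (open bars). The dotted line is an even share among 3 libraries, and replicate 1 of AKTmyr, T53D4 and RasV12 holds 76.7%, 80% and 66.7% of the members.

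**Figure D4:**
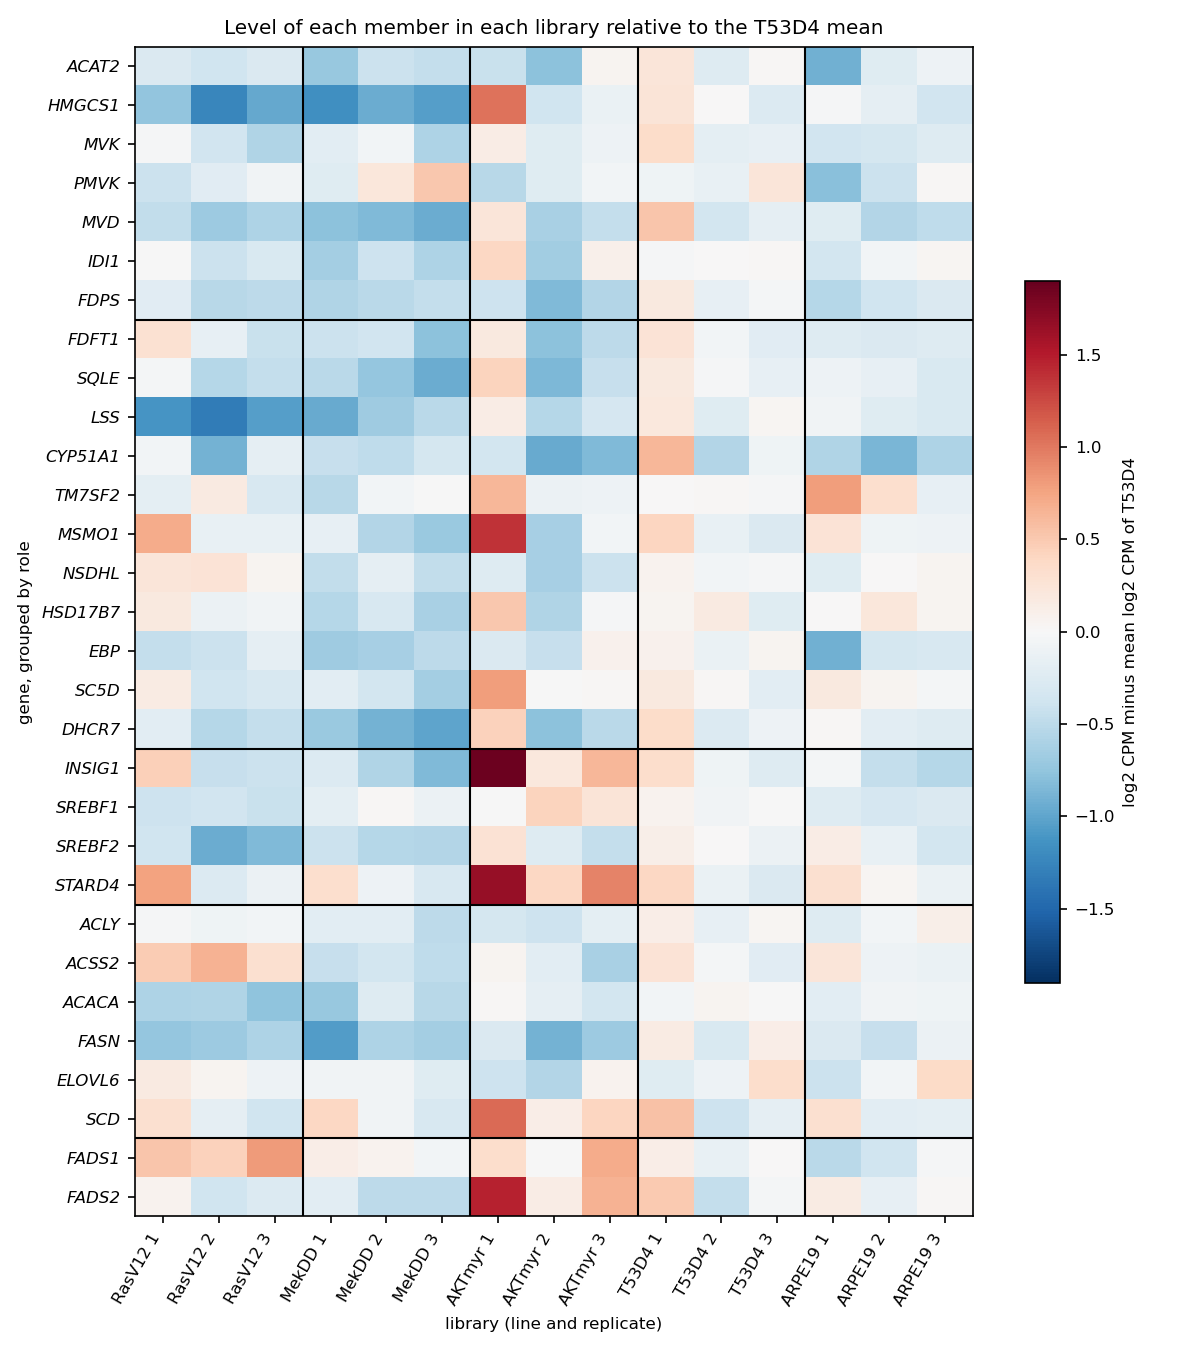
Log2 CPM of each member (rows, grouped by role) in each library (columns) minus the mean log2 CPM of the 3 T53D4 libraries, red higher and blue lower. The MekDD columns are blue over most of the sterol rows, and the first AKTmyr column is red for HMGCS1, MSMO1, INSIG1, STARD4 and FADS2, with a value of 1.03 for HMGCS1.

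The 3 oncogene lines were also set against each other. These comparisons share libraries with those above, so they are not further evidence for them. The oncogene lines also differed in the mean counts of cyclin D1, CDK4 R24C, hTERT and p53DD given above. The oncogenes and these constructs cannot be told apart here either.

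RasV12 against MekDD sets activated RAS beside the branch that MEK carries. Of 30 members, 2 rose and 0 fell, 6.67% against 15.5% of all genes tested, of which 7.17% were called higher and 8.33% lower. The median log2 fold change was 0.22 over the members, 23 of them positive, 10 of the 11 between squalene and cholesterol among these. At an unadjusted p under 0.05 there were 6 members of either direction and 3866 genes, and DESeq2 called 0 members lower. ACSS2 was at 47.5, 53.9 and 41.9 CPM in RasV12 libraries, against 25.1, 26.8 and 24.4 CPM in MekDD libraries, far apart (log2 fold change 0.91, SE 0.18, edgeR adjusted p = 0.003). The call held in all 11 alternatives. ACSS2 lies on chromosome 20, where the median log2 fold change over 287 genes in this comparison was 0.31, and the part of the chromosome in its value was not tested. NSDHL was at 48.0, 48.7 and 42.1 CPM in RasV12 libraries, against 29.6, 36.3 and 29.4 CPM in MekDD libraries, without overlap (log2 fold change 0.54, SE 0.13, edgeR adjusted p = 0.0112). It was not called without MekDD replicate 3, which left 1 member called. HMGCS1 was low in both lines, at 103, 73.1 and 88.1 CPM in RasV12 and 76.9, 90.4 and 83.7 CPM in MekDD libraries, with overlap, and the sign of its difference turned without RasV12 replicate 1. LSS was at 71.8, 61.9 and 75.5 CPM in RasV12 libraries, against 80.3, 97.8 and 109 CPM in MekDD libraries, a log2 fold change of -0.46 (edgeR adjusted p = 0.0981, and 0.04 with the replicate block). With the block FADS1 was also called higher, at a log2 fold change of 0.56, and PMVK and SREBF1 lower, at -0.43 and -0.30; their adjusted p with the block was 0.0159, 0.0184 and 0.0445 in the edgeR test, and without it 0.0503, 0.223 and 0.0791. That made 3 members higher and 3 lower, against 26.4% of all genes.

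RasV12 against AKTmyr gave the most member calls, in the comparison with the most calls overall. Of 30 members, 8 fell and 2 rose, 33.3% against 40.4% of all genes tested, of which 20.7% were called lower and 19.6% higher. All 4 regulators and carriers fell. SREBF1 was at 54.1, 55.2 and 52.6 CPM in RasV12 libraries, against 70.4, 95.3 and 83.9 CPM in AKTmyr libraries (log2 fold change -0.62, SE 0.11, edgeR adjusted p = 5.79e-04), and its groups did not overlap. INSIG1 was at 134, 72.3 and 74.0 CPM in RasV12 libraries, against 355, 112 and 151 CPM in AKTmyr libraries (log2 fold change -1.14, SE 0.37, edgeR adjusted p = 0.0237). The groups overlapped, through RasV12 replicate 1 and AKTmyr replicate 2. STARD4 and SREBF2 also overlapped and had log2 fold changes of -0.89 and -0.59 (edgeR adjusted p = 0.0402 and 0.0271).

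Among the enzymes, HMGCS1 was at 103, 73.1 and 88.1 CPM in RasV12 libraries, against 352, 133 and 159 CPM in AKTmyr libraries (log2 fold change -1.29, SE 0.29, edgeR adjusted p = 0.00306), with no overlap. LSS was at 71.8, 61.9 and 75.5 CPM in RasV12 libraries, against 171, 107 and 125 CPM in AKTmyr libraries, also apart (log2 fold change -0.95, SE 0.18, edgeR adjusted p = 8.75e-04). FADS2 was at 331, 243 and 264 CPM in RasV12 libraries, against 871, 349 and 496 CPM in AKTmyr libraries (log2 fold change -1.03, SE 0.29, edgeR adjusted p = 0.012). The nearest FADS2 libraries were RasV12 replicate 1 and AKTmyr replicate 2. ACACA fell by 0.48 on the log2 scale (edgeR adjusted p = 0.01). ACSS2 was at 47.5, 53.9 and 41.9 CPM in RasV12 libraries, against 35.2, 29.5 and 22.1 CPM in AKTmyr libraries (log2 fold change 0.72, SE 0.18, edgeR adjusted p = 0.00494), beside a chromosome 20 median of 0.25. NSDHL rose by a log2 fold change of 0.60 (SE 0.13, edgeR adjusted p = 0.00228), at 48.0, 48.7 and 42.1 CPM in RasV12 libraries, against 34.3, 26.3 and 30.7 CPM in AKTmyr libraries. Both ACSS2 and NSDHL were without overlap. Of the 10 called, 6 kept their calls in all 11 alternatives (HMGCS1, LSS, NSDHL, SREBF1, ACSS2 and ACACA). The other 4, INSIG1, STARD4, SREBF2 and FADS2, were lost without AKTmyr replicate 1 or RasV12 replicate 2, which left 4 members called lower, with INSIG1 at -0.50 (edgeR adjusted p = 0.192) in the fit without AKTmyr replicate 1. Without RasV12 replicate 3, 5 members were called lower.

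In MekDD against AKTmyr, INSIG1, HMGCS1, FADS2 and STARD4 were the members with the largest falls. Of 30 members, 6 fell and 0 rose, 20% against 26.2% of all genes tested, of which 12.7% were called higher and 13.5% lower. INSIG1 was at 81.9, 65.7 and 54.6 CPM in MekDD libraries, against 355, 112 and 151 CPM in AKTmyr libraries, apart (log2 fold change -1.61, SE 0.37, edgeR adjusted p = 0.00669). HMGCS1 was at 76.9, 90.4 and 83.7 CPM in MekDD libraries, against 352, 133 and 159 CPM in AKTmyr libraries (log2 fold change -1.36, SE 0.29, edgeR adjusted p = 0.00408). FADS2 was at 273, 222 and 223 CPM in MekDD libraries, against 871, 349 and 496 CPM in AKTmyr libraries (log2 fold change -1.26, SE 0.29, edgeR adjusted p = 0.00716). Neither of these overlapped between the lines, and all 3 calls held in all 11 alternatives. Without AKTmyr replicate 1 their log2 fold changes were -0.98, -0.82 and -0.84 (edgeR adjusted p = 0.0303, 0.00776 and 0.0331). STARD4 was at 64.4, 48.1 and 41.8 CPM in MekDD libraries, against 162, 67.7 and 98.8 CPM in AKTmyr libraries (log2 fold change -1.09, SE 0.32, edgeR adjusted p = 0.0238), narrowly apart. SC5D, a sterol desaturase, and SREBF1 fell by 0.70 and 0.32 on the log2 scale (edgeR adjusted p = 0.0267 and 0.0433).

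With the replicate block 14 members fell and PMVK rose, 50% of the members against 40.3% of all genes. The genes added on the low side were ACACA, DHCR7, EBP, LSS, MSMO1, MVD, SCD and SREBF2, with edgeR adjusted p between 0.00534 and 0.0384 with the block and between 0.0531 and 0.195 without it. PMVK was at 30.1, 40.8 and 50.5 CPM in MekDD libraries, against 24.3, 30.1 and 33.9 CPM in AKTmyr libraries, overlapping but higher in MekDD within each replicate number (log2 fold change 0.46, edgeR adjusted p = 0.14, and 0.00807 with the block). Without AKTmyr replicate 2, 12 members were called lower, and STARD4 and SC5D were lost without AKTmyr replicate 1, MekDD replicate 2 or MekDD replicate 3. SREBF1, whose groups overlapped, was lost without any 1 MekDD replicate and without AKTmyr replicate 2 or 3.

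**Figure D5:**
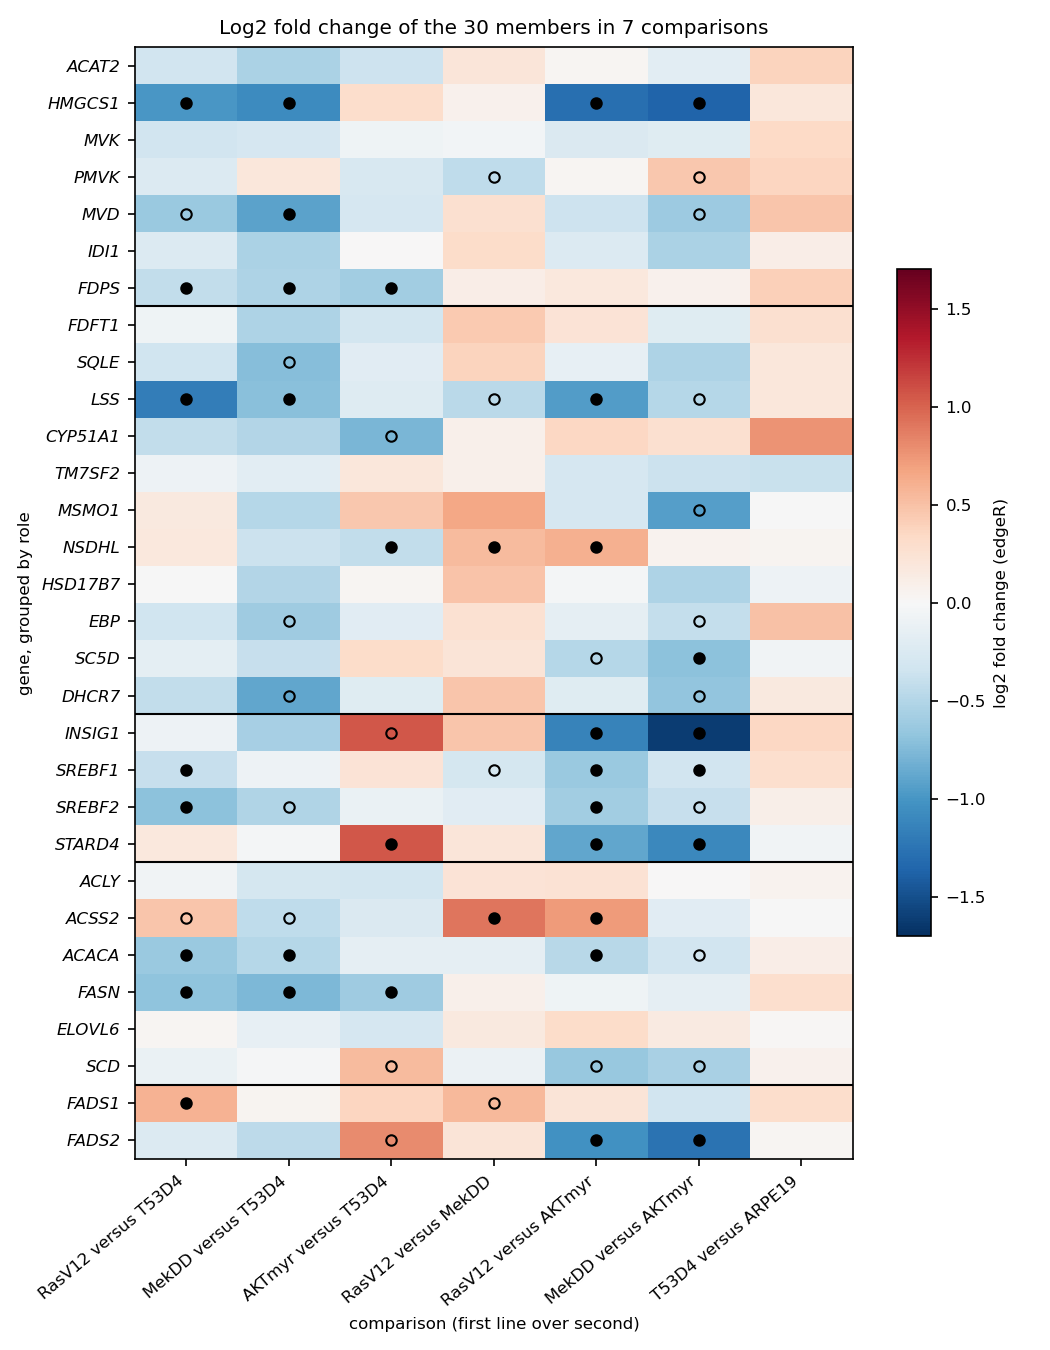
Log2 fold change of each member (rows, grouped by role) in the 7 comparisons (columns, first line over second), red higher and blue lower. Filled circles mark members called by edgeR at an adjusted p under 0.05, open circles those called only with the replicate block; HMGCS1 is the row with the most filled circles on the low side, from -0.99 to -1.36.

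In all, 15 of the 30 members (50%) were called in at least 1 of the 7 comparisons, against 54.4% of all genes tested, and 15 in none, where the lowest edgeR adjusted p was 0.0587, for EBP. Of the mevalonate genes, ACAT2, which joins acetyl-CoA units, MVK and PMVK, the kinases, and IDI1, the isomerase of the isoprene units, were in the second set. IDI1 was at 107, 81.4 and 87.9 CPM in RasV12, 69.2, 81.7 and 72.2 CPM in MekDD and 142, 68.0 and 115 CPM in AKTmyr libraries, against 106, 109 and 109 CPM in T53D4 and 85.0, 104 and 111 CPM in ARPE19. The T53D4 libraries nearly coincided and every MekDD value lay below them, while AKTmyr spanned both. IDI1 lies on the short arm of chromosome 10, where the median log2 fold change of RasV12 over T53D4 was -0.33 across 102 genes, and the part of the chromosome in its value was not tested.

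Of the squalene-to-cholesterol genes, FDFT1, SQLE, CYP51A1, TM7SF2, MSMO1, HSD17B7, EBP and DHCR7 were never called. FDFT1, which couples farnesyl units into squalene, was at 335, 245 and 205 CPM in RasV12, 206, 212 and 160 CPM in MekDD and 311, 160 and 193 CPM in AKTmyr libraries, against 329, 264 and 236 CPM in T53D4 and 231, 226 and 230 CPM in ARPE19. SQLE was at 131, 93.0 and 98.3 CPM in RasV12, 94.9, 81.2 and 70.5 CPM in MekDD and 182, 74.5 and 99.1 CPM in AKTmyr libraries, against 154, 132 and 121 CPM in T53D4 and 126, 121 and 110 CPM in ARPE19. For both, all MekDD values were below all T53D4 and ARPE19 values, and ARPE19 was the line with the narrowest spread. TM7SF2, a sterol reductase, varied most in ARPE19, at 50.3, 36.2 and 26.0 CPM there. Of the fatty acid genes, ACLY, SCD and ELOVL6, which lengthens palmitate, were never called. ELOVL6 was at 139, 128 and 115 CPM in RasV12, 117, 117 and 105 CPM in MekDD and 93.9, 83.5 and 129 CPM in AKTmyr libraries, against 105, 115 and 155 CPM in T53D4 and 92.8, 118 and 158 CPM in ARPE19. Every line overlapped every other in ELOVL6.

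Beyond the 30, 54 other genes of sterol and fatty acid handling were in the table and 51 were tested. The count of higher and lower calls was 4 and 6 in RasV12 against T53D4, 2 and 3 in MekDD against T53D4, and 6 and 4 in AKTmyr against T53D4. These are 19.6%, 9.8% and 19.6% of the 51, beside 24.4%, 5.1% and 20.1% of all genes tested. In T53D4 against ARPE19 it was 0 both ways by edgeR, beside 0.154% of all genes. The replicate block raised these counts to 10 and 13, 4 and 4, 11 and 8, and 2 and 1 in that order. It also raised the calls over all genes tested, to 35.8%, 11.7%, 34.8% and 1.71%. The medians of the 51 log2 fold changes were 0.01, 0.01, 0.10 and -0.01.

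Among genes that move or break down sterol, ABCA1 and CYP27A1 changed in more than 1 line. ABCA1, which exports cholesterol from cells, was at 23.5, 45.6 and 75.2 CPM in RasV12 libraries, against 3.53, 11.2 and 20.8 CPM in the libraries labelled T53D4 (log2 fold change 2.03, SE 0.61, edgeR adjusted p = 0.026). In AKTmyr libraries it was at 20.1, 45.5 and 62.1 CPM (log2 fold change over T53D4 1.85, SE 0.61, edgeR adjusted p = 0.0457). RasV12 did not overlap T53D4, while AKTmyr replicate 1 lay just under T53D4 replicate 3. The call of ABCA1 in RasV12 was lost without RasV12 replicate 2 or 3 or T53D4 replicate 1 or 2 (edgeR adjusted p up to 0.104). In AKTmyr it was lost without AKTmyr replicate 2 or 3 or T53D4 replicate 1 or 2 and with the pair of lines alone (edgeR adjusted p up to 0.12). CYP27A1, a mitochondrial sterol hydroxylase, was at 5.91, 6.03 and 5.13 CPM in RasV12, 16.3, 20.7 and 18.2 CPM in MekDD and 6.05, 6.08 and 5.75 CPM in AKTmyr libraries, against 11, 12.5 and 10.6 CPM in T53D4 libraries. It was thus lower than in T53D4 in RasV12 and AKTmyr cells and higher in MekDD cells, at log2 fold changes of -0.999, -0.934 and 0.689 (edgeR adjusted p = 1.90e-04, 7.59e-04 and 0.01), with no overlap in any of the 3. Set against each other, RasV12 and MekDD differed by a log2 fold change of -1.69 (SE 0.14, edgeR adjusted p = 5.63e-06). Of these CYP27A1 calls, the one in MekDD against T53D4 was lost without MekDD replicate 2 (edgeR adjusted p = 0.0633).

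Among genes that feed or lengthen fatty acids, ACSS1, the mitochondrial acetate enzyme, was scarce: 0.219, 0.426 and 0.180 CPM in RasV12, 0.0623, 0.102 and 0.0423 CPM in MekDD and 0.405, 0.837 and 0.208 CPM in AKTmyr libraries, against 1.34, 1.41 and 1.05 CPM in T53D4 libraries. All 3 lines were below T53D4 (log2 fold changes -2.13, -4.06 and -1.33, edgeR adjusted p = 0.00341, 4.05e-04 and 0.0389). The AKTmyr call of ACSS1 was lost with the pair of lines alone and without AKTmyr replicate 1 or 3 or any 1 T53D4 replicate (edgeR adjusted p up to 0.133). ELOVL4, an elongase of very long chains, was higher in all 3 lines than in T53D4, at log2 fold changes of 0.99, 0.63 and 0.90 in RasV12, MekDD and AKTmyr cells (edgeR adjusted p = 7.78e-04, 0.0477 and 0.00305). It was at 7.19, 7.33 and 8.01 CPM in RasV12, 5.36, 6.36 and 5.79 CPM in MekDD and 8.43, 6.39 and 6.33 CPM in AKTmyr libraries, against 3.70, 3.90 and 3.71 CPM in T53D4 libraries, with no overlap. Its MekDD call was lost without any 1 MekDD or T53D4 library, with no filter on low counts and with the pair of lines alone (edgeR adjusted p up to 0.175). ME1, malic enzyme, which supplies NADPH for fatty acid synthesis, was at 64.3, 69.0 and 60.4 CPM in AKTmyr libraries, against 45.6, 45.4 and 33.1 CPM in T53D4 libraries (log2 fold change 0.64, SE 0.17, edgeR adjusted p = 0.0187), and this call was lost without AKTmyr replicate 2 or T53D4 replicate 3 (edgeR adjusted p up to 0.0811). It was lower in RasV12 and MekDD cells than in AKTmyr cells by log2 fold changes of -1.13 and -1.19 (edgeR adjusted p = 2.22e-04 and 3.22e-04). SLC25A1, the citrate carrier that brings carbon out of mitochondria, was at 148, 138 and 118 CPM in RasV12 and 111, 120 and 135 CPM in MekDD libraries, against 183, 169 and 166 CPM in T53D4 libraries (log2 fold changes -0.36 and -0.50, edgeR adjusted p = 0.0403 and 0.026). Neither line overlapped T53D4. The RasV12 call of SLC25A1 was lost without RasV12 replicate 2 or 3 or any 1 T53D4 replicate, with no filter on low counts and with the pair of lines alone (edgeR adjusted p up to 0.144). Its MekDD call was lost without MekDD replicate 1 or 2 or any 1 T53D4 replicate and with the pair alone (edgeR adjusted p up to 0.123).

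Between the oncogene lines, 4 of the 51 rose and 3 fell in RasV12 against MekDD, 4 and 9 in RasV12 against AKTmyr, and 4 and 9 in MekDD against AKTmyr. These are 13.7%, 25.5% and 25.5% of the 51, beside 15.5%, 40.4% and 26.2% of all genes tested. INSIG2, the second anchor of the sterol sensor, was at 36.7, 25.5 and 31.3 CPM in RasV12 libraries, against 102, 39.9 and 69.4 CPM in MekDD and 74.2, 46.9 and 95.8 CPM in AKTmyr libraries. Its RasV12 values were below all MekDD and AKTmyr values, at log2 fold changes of -1.18 and -1.21 (edgeR adjusted p = 0.0329 and 0.0127). The call against MekDD was lost without any 1 RasV12 replicate or without MekDD replicate 1 or 3 (edgeR adjusted p up to 0.149), and that against AKTmyr without RasV12 replicate 2 (edgeR adjusted p = 0.0552). ELOVL7, another elongase, was at 12.3, 15.4 and 21.0 CPM in RasV12 and 13.4, 16.1 and 20.2 CPM in MekDD libraries, against 56.4, 46.0 and 34.1 CPM in AKTmyr libraries (log2 fold changes -1.49 and -1.46, edgeR adjusted p = 1.79e-04 and 4.38e-04). ACSL5, which activates fatty acids, ran the other way, at 39.1, 45.4 and 77.8 CPM in RasV12 and 51.0, 58.8 and 53.9 CPM in MekDD libraries, against 19.2, 29.6 and 25.8 CPM in AKTmyr libraries (log2 fold changes 1.12 and 1.13, edgeR adjusted p = 0.00269 and 0.00457).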

How the data were processed

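Poly(A) RNA was sequenced (directional, paired-end) in 15 libraries, grouped by the line in each sample's title. The authors deposited raw read counts per gene, which were used as deposited. Per the submitters' processing notes the tools, with no role or order given, were HISAT2 2.1.0, fastp 0.20.0, DESeq2 1.28.1, featureCounts 1.6.4, deepTools 3.2.0 and SAMtools 1.9, and the build was hg38; the handling of strand and of reads with several matches is not given in the sources used here. The authors' normalized tables were not used. The 30 genes and all lists were chosen with earlier results of these data known, so no count over a list is independent evidence, and list counts have no test.

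The 7 construct rows were left out of library sizes. Genes were filtered with filterByExpr (minimum count 10), and edgeR 4.0.16 (R 4.3.3, glmQLFit and glmQLFTest, TMM factors) was fitted once to all 15 libraries with line as the sole factor. Adjusted p-values are Benjamini-Hochberg over the 13599 genes and calls are under 0.05. A p that misses this does not show equal levels. SE is the log2 fold change divided by the root of the F statistic. CPM and RPKM were computed here from the deposited counts and the deposited annotation's merged exon lengths, and the plot of single libraries uses log2 CPM with a prior count of 2. Genes were named by role, with values per library for up to 4 called members each way in a comparison and for others chosen after values were seen.

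Data were simulated for RasV12 against T53D4 over 13599 genes, 200 of them changed. Calls recovered 4.48% of 67 genes changed 1.5-fold, 53.7% of 67 changed 2-fold and 89.4% of 66 changed 4-fold, with 6 unchanged genes called. In that setting small changes were often missed with 3 libraries a line. The real comparison called 24.4% of genes, so the unadjusted p needed for a call differed and these shares may not carry over. Alternatives were RLE factors, no filter, DESeq2 1.42.0, the pair of lines alone, the replicate number as a block, and each library left out. Same-numbered libraries deviated together across all tested genes: the lowest correlation of deviations from the group means was between 0.141 and 0.452 in 6 comparisons, above the minimum of 0.1, so the block is given where it changes a call or a count. In RasV12 against AKTmyr it was 0.0271. The pairing comes from the data, since the labels give numbers but no shared day or batch.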

Additional observations from a re-analysis of the deposited data

How the results depend on the processing

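Of 36 member calls, 12 held in all 11 alternatives, and all 94 calls of members and other pathway genes held with the replicate block. Of 58 calls of other pathway genes, 24 held in all alternatives. In the 1428 refits of single genes, 256 lost a call, 58 gained one and 6 turned the sign of a fold change that was not called. The log2 fold change of INSIG1 in RasV12 against T53D4 was -0.09, with 0.07 without RasV12 replicate 2, 0.05 without RasV12 replicate 3 and 0.11 without T53D4 replicate 1 (-0.43 to 0.11 with 1 library left out). That of STARD4 there was 0.18, with -0.20 without RasV12 replicate 1 (-0.20 to 0.41). That of HMGCS1 was 0.30 in AKTmyr against T53D4, with -0.25 without AKTmyr replicate 1 (-0.25 to 0.55), and 0.0726 in RasV12 against MekDD, with -0.0502 without RasV12 replicate 1 (-0.0502 to 0.191). The cause was not tested.

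Numbers of genes called over all 13599, main value first, were 21 in T53D4 against ARPE19, with 188 by DESeq2, 232 with the replicate block, 2 with the pair of lines alone and 1 to 6 with 1 library left out. They were 3313 in RasV12 against T53D4 (2534 to 2862 with 1 library left out), and 694 in MekDD against T53D4, with 1116 by DESeq2, 1589 with the block and 360 to 600 with 1 left out. They were 2738 in AKTmyr against T53D4, with 4738 with the block, 1449 with the pair alone and 1611 to 2669 with 1 left out. In RasV12 against MekDD they were 2108, with 3588 with the block and 1352 to 1815 with 1 left out, in RasV12 against AKTmyr 5490 (4319 to 5677), and in MekDD against AKTmyr 3560, with 5481 with the block, 2349 with the pair alone and 2271 to 3698 with 1 left out.

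Members called higher in RasV12 against T53D4 were 1, and 2 by DESeq2 or with the block (0 to 2 with 1 left out); lower 7 (2 to 7). Members called lower in MekDD against T53D4 were 6, and 11 with the block (0 to 3). In AKTmyr against T53D4 the number higher was 1, with 3 by DESeq2, 4 with the block and 0 with the pair alone (0 to 3), and lower 3, with 0 with the pair alone (1 to 5). In RasV12 against MekDD the number higher was 2 (1 to 2), and lower 0, with 3 with the block. In RasV12 against AKTmyr the number lower was 8, with 5 with the pair alone (4 to 10). Since the replicate numbers did not meet the rule for pairing there, that block is given here alone: 10 lower and 2 higher, SC5D and SCD added. With that block 40% of the members were called, against 52.7% of all genes. In MekDD against AKTmyr the number higher was 0, with 1 with the block, and lower 6, with 11 by DESeq2 and 14 with the block (4 to 12).

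Libraries held at least 20.63 M reads on genes, and the lowest member value was 4.16 CPM, for CYP51A1 in AKTmyr replicate 2. ACSS1, at 0.0423 to 1.41 CPM in the lines described, had the fewest reads of the sterol and fatty acid genes given with values. The marker TYR had fewer.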
